A study of Mus musculus with 20 samples.

Results

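Collagens are proteins of the extracellular matrix built from 3 chains wound into a triple helix, in which glycine returns at every step of a Gly-X-Y repeat because only glycine is small enough to face the axis. Fibrillar chains form the load-bearing fibrils of the lung interstitium and of scars. Type IV chains form the sheet of the basement membrane beneath alveolar epithelium and capillaries. FACIT chains, which carry interrupted helices, sit on the surface of fibrils, and smaller classes form beaded filaments, anchoring fibrils or hexagonal networks or span the cell membrane. The collagen chain genes were taken as every gene whose name in the array files reads Col, a number, the letter a and a number. This gave 40 genes, measured by 78 probes, of 27671 named genes and transcripts on the array. Each gene was represented by its probe with the highest mean lung signal. Of the 40 genes, 35 passed a filter on dim probes, which asked that the software call the lung signal well above background in 3 or more of the 5 dams of some group. Col9a1, Col10a1, Col19a1, Col24a1 and Col28a1 did not pass at that probe and are given no differences there.

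The lungs came from female C57BL/6BomTac mice that had been time-mated and given carbon black (Printex 90), an industrial soot nanoparticle, by instillation into the trachea. Instillations were given 4 times in pregnancy, on day 7, day 10, day 15 and day 18 of gestation. There were 4 groups of 5 dams. Control dams received purified water by the same route. The summed carbon black per animal was 11 µg in the low-dose group, 54 µg in the medium-dose group and 268 µg in the high-dose group. Lungs were taken 26 to 27 days after exposure, and each dam had an array of its own. Lung RNA was labelled with Cy5 and hybridised beside a purchased reference pool labelled with Cy3 (Stratagene Universal Reference RNA), and dyes were never swapped. A value is therefore the log2 of lung signal divided by reference signal at 1 probe. Such a ratio does not rank genes by abundance. The lung is a mixture of cell types, and fewer cells of a type and less RNA per cell cannot be told apart in these samples.

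Between 64.0% and 78.3% of probes had a lung signal well above background, and the median Cy5 signal of an array was 161.5 to 246.5 intensity units over a local background of 80 to 83. Of the 6 slides, 3 carried a dam of each group, 2 lacked the medium dose, and the last carried 2 medium-dose arrays alone. On slides with controls each group kept one position, so position and group cannot be told apart. Lung epithelial markers (surfactant proteins, Ager, Hopx, Aqp5 and others, 9 of 9 measured) had a mean log2 ratio of 3.72 to 4.74 per dam. The mean of 7 cardiac muscle markers ranged from 0.488 to 3.14 among dams, and that of the 3 measured adipose markers from 0.439 to 4.16.

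In control lungs 14 of the 35 collagen genes had a mean log2 ratio above 0, as had 48.8% of all 19908 genes tested. The classes lay on different sides of the reference. All 6 type IV genes had a mean above it at their brightest probe. The lowest was Col4a5 at 0.016 ± 0.11 (SD, n = 5), whose dams lay on both sides of 0, from -0.087 to 0.18. The highest was Col4a3, a chain of the alveolar and glomerular basement membrane, at 3.30 ± 0.40. The dimmer probes of Col4a6 averaged -0.16 and 0.11 in controls. By contrast 9 of 10 fibrillar genes were below the reference, with Col27a1 the exception at 0.58 ± 0.068. Among FACIT genes 1 of 7 was above, Col14a1 at 3.80 ± 0.30. The largest ratio of any collagen gene was that of Col13a1, a transmembrane collagen, at 4.69 ± 0.24, and the lowest that of Col8a1, a short network-forming chain, at -2.97 ± 0.28. These ratios depend on the reference pool, whose makeup was not measured separately.

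**Figure D1:**
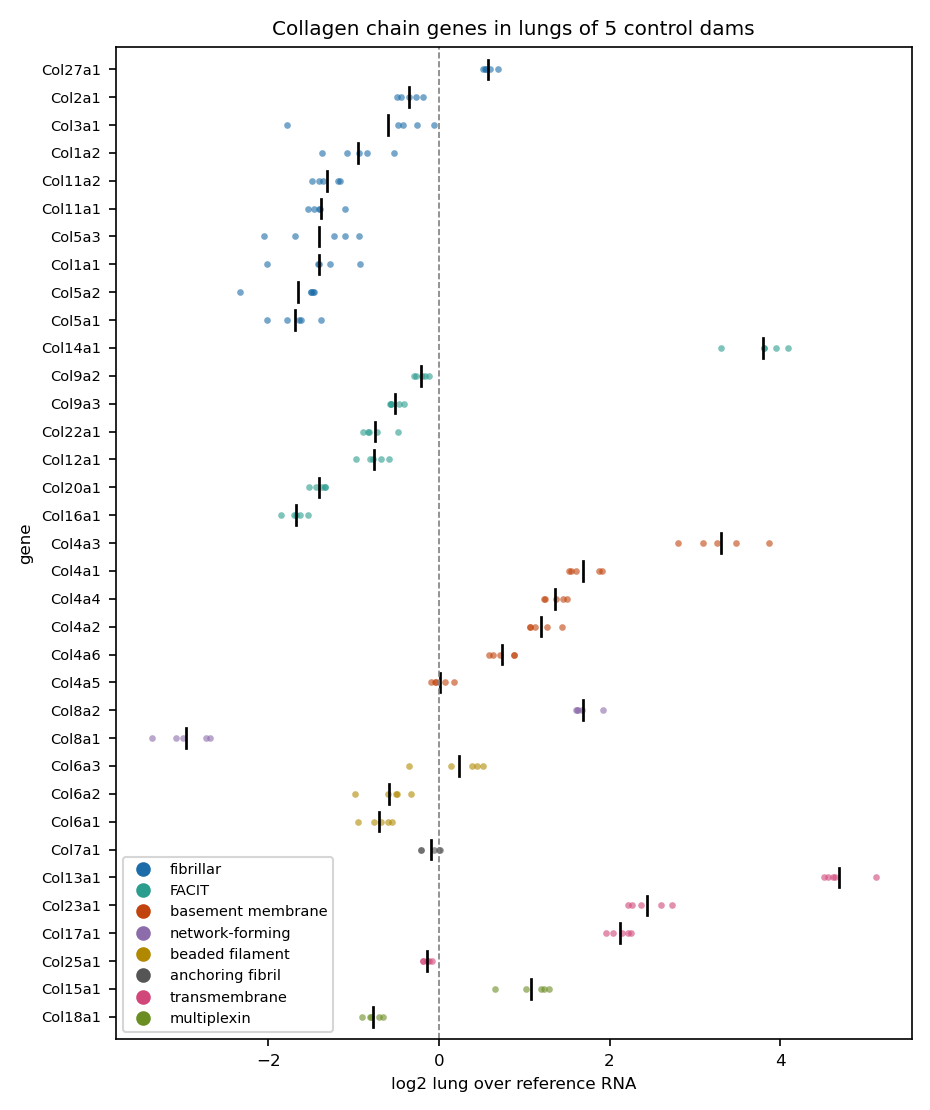
Log2 ratio of lung over reference RNA (horizontal axis) for the 35 collagen genes (vertical axis, grouped and coloured by class) in the 5 control dams. Points are dams and black bars are means; all 6 basement membrane genes lie above 0 on average and 9 of 10 fibrillar genes below it.

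Col17a1 was the 1 collagen gene that changed at its brightest probe. Other probes of Col23a1 and Col22a1 passed a test over all probes and are described with those genes. Col17a1 encodes type XVII collagen, a transmembrane collagen of hemidesmosomes that ties epithelial cells to the basement membrane. In control dams its log2 ratio was 2.22, 2.26, 1.95, 2.04 and 2.15, at the low dose 1.8, 1.71, 1.86, 1.67 and 1.77, at the medium dose 1.71, 2.02, 1.92, 2.1 and 1.8, and at the high dose 1.92, 1.69, 1.47, 1.6 and 1.5, in the order of slides. Every high-dose dam and every low-dose dam lay below every control dam, while medium-dose dams overlapped with the controls. Of 35 collagen genes, Col17a1 was 1 without overlap between high-dose and control dams, where 3.48% of all genes had none (1.99% with the high dose lower), and 1 without overlap at the low dose, where 1.48% had none (0.879% lower). At the medium dose 0 of 35 were free of overlap, where 3.21% of all genes were. Relative to controls Col17a1 fell by 0.49 ± 0.086 (SE) on the log2 scale at the high dose, 1.40-fold lower, with an adjusted p of 0.0087 (limma, Benjamini-Hochberg over all genes). It was 1 of 35 collagen genes called at the high dose, against 1.02% of all genes (204 of 19908). The difference was -0.21 ± 0.086 at the medium dose (adjusted p = 0.292) and -0.36 ± 0.086 at the low dose (adjusted p = 0.508, limma), so neither passed the test over all genes.

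Differences of the high-dose dam from the control of the same slide lay between -0.65 and -0.30 for Col17a1. At the high and low dose it was lower on 5 of 5 slides. Those counts follow from the lack of overlap and add no support. At the medium dose it was lower on 3 of 3. With the slide as a fixed block the high-dose difference had an adjusted p of 0.0145. The lung channel alone differed by -0.46 ± 0.13, which did not pass (adjusted p = 0.27, limma), and the reference channel by 0.051 ± 0.081. In a trend over the 4 dose steps Col17a1 changed by -0.13 ± 0.033 per step (adjusted p = 0.0488, limma). It was again 1 of 35 collagen genes, against 1.37% of all genes, and 6 of 35 had an unadjusted p under 0.05 for the trend, where 16.7% of all genes had one. The means did not follow the order of dose, since the medium-dose mean of 1.91 ± 0.16 lay above the low-dose mean of 1.76 ± 0.073 (SD, n = 5), and leaving out a single dam ended the trend call for 14 of the 20 dams. It was kept only without low-dose dam 27 or 31, medium-dose dam 47, 48 or 49, or high-dose dam 60.

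A second Col17a1 probe, with a mean lung signal of 137 intensity units against 848 for the first, differed by -0.10 ± 0.066 at the high dose (adjusted p = 0.456 over all probes, limma). Its own range in controls, from 0.44 to 0.69, overlapped with the range from 0.33 to 0.51 at the high dose. The high-dose call was also lost when ratios were rebuilt from background-corrected scanner signals, with a difference of -0.41 ± 0.17 (adjusted p = 0.401, limma), with the scanner software's own ratio (-0.34 ± 0.11, adjusted p = 0.361), and with only control and high-dose arrays in the fit (adjusted p = 0.0673). The probes lie on the minus strand of chromosome 19 (build mm7, per the array files), the brighter at chr19:47546901-47546960 and the dimmer at chr19:47547213-47547272. For the lung epithelial markers the mean per dam ranged from 3.72 to 4.65 in controls and from 3.79 to 4.35 at the high dose, and 8 of 9 had a positive difference, with none called and 0 at an unadjusted p under 0.05 (limma). Among 7 other hemidesmosome and basal cell genes (Itga6, Itgb4, Plec, Dst, Cd151, Krt5 and Krt14, chosen after Col17a1 had been seen), 0 were called and 2 had an unadjusted p under 0.05, Dst at -0.24 ± 0.10 and Plec at 0.30 ± 0.14. Means per dam of mesothelial and macrophage markers overlapped between controls and each dose group. The mean of the 4 mesothelial markers was -0.873 to -0.019 per dam in controls, -0.181 to 0.505 at the low dose and -0.579 to 0.506 at the high dose. The mesothelial markers had a median difference of 0.56 at the low, 0.69 at the medium and 0.28 at the high dose, with 4, 4 and 1 at an unadjusted p under 0.05 and 0 called (limma). Of 6 macrophage markers 1 fell at the high dose, Siglecf by 0.93 (adjusted p = 0.00415, limma), and the other 5 did not pass (median of all 6 -0.016). At the low dose 5 of 6 were negative (median -0.28, 3 at an unadjusted p under 0.05, 0 called). Their part in the Col17a1 values was not tested.

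The 250 bases before the RefSeq start of Col17a1, chr19:47692043-47692292 on the minus strand of GRCm38.p6, are shown because this is the promoter of the one collagen gene that passed the test at its brightest probe. Capitals mark TATAAA, and CCAAT or its reverse complement ATTGG, the letters searched on both strands together with CCGCCC.
Col17a1: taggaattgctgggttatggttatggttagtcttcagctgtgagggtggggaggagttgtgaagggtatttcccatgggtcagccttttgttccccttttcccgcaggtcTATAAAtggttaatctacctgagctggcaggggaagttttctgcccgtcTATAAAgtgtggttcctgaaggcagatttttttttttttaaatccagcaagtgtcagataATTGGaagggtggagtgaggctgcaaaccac
The window holds TATAAA 2 times and CCAAT 1 time, with no CCGCCC. Of all 32851 RefSeq promoter windows of this length, 12.4% hold TATAAA, 33.9% CCAAT and 32.7% CCGCCC. Windows were found for 32 of the 40 collagen genes (35 windows), of which 5 hold TATAAA, 12 CCAAT and 19 CCGCCC. A match in these letters is a description of the sequence and not a measured binding site.

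**Figure D2:**
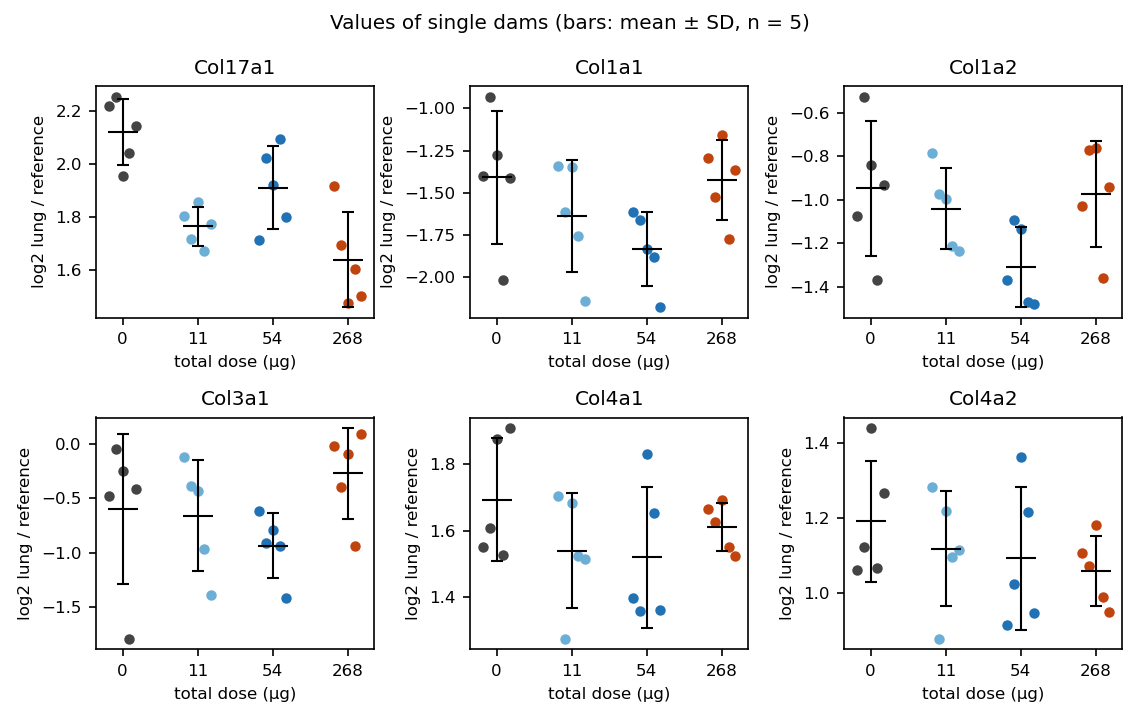
Log2 ratio of lung over reference RNA (vertical axes) against total dose in µg (horizontal axes, evenly spaced) for Col17a1, the type I and type III chains and the common type IV chains. Points are dams, bars the mean ± SD (n = 5); the high-dose and low-dose dams of Col17a1 all lie below its controls, and the other genes overlap between groups.

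Fibrillar chains showed no call at any dose, whether for the main scar collagens or for the minor chains. Of the 10 measured, 5 had a positive and 5 a negative difference at the high dose. Their median was 0.040 beside -0.0091 for all genes, and 0 were called (1 at an unadjusted p under 0.05, limma). The positive differences include that of Col11a1 (0.18), which passed the filter on dim probes through the high dose alone. The fibrillar count and median therefore depend in part on that filter. Over all 35 collagen genes the high dose gave 11 positive and 24 negative differences, a median of -0.047, and 3 with an unadjusted p under 0.05 (Col17a1, Col22a1 and Col27a1), where 16.5% of all genes had one. Col1a1 encodes the chain that supplies most of the type I fibril, and Col1a2 its partner. Col1a1 was at -1.4, -0.93, -1.28, -2.02 and -1.41 in control dams, -1.34, -1.61, -1.35, -1.75 and -2.14 at the low, -1.62, -1.66, -1.83, -1.88 and -2.18 at the medium and -1.29, -1.53, -1.16, -1.77 and -1.36 at the high dose. The Col1a2 ratios were -1.07, -0.53, -0.84, -1.37 and -0.93 in controls, -0.79, -0.97, -1.0, -1.21 and -1.24 at the low dose, -1.37, -1.09, -1.14, -1.47 and -1.48 at the medium dose and -1.03, -0.77, -0.77, -1.36 and -0.94 at the high dose. Both genes overlapped widely with the controls at the high dose, where they differed by -0.015 ± 0.18 and -0.025 ± 0.14. The 95% interval for Col1a1 ran from -0.38 to 0.35.

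Col3a1 encodes type III collagen, which shares fibrils with type I. Col3a1 was at -0.48, -0.053, -0.25, -1.79 and -0.42 in control dams, -0.13, -0.39, -0.44, -0.96 and -1.39 at the low, -0.62, -0.91, -0.79, -0.94 and -1.41 at the medium and -0.025, -0.39, -0.093, -0.94 and 0.092 at the high dose. Control dam 15 was far below the other controls, and of the high-dose dams 2 lay above the remaining controls (60 and 65), 2 among them and 1 below (64). On slides the high-dose dam was above its control on 4 of 5. The difference of 0.33 ± 0.29 (adjusted p = 0.614, limma) was 0.029 without control dam 15. Col5a2, a chain of the type V collagen that starts fibrils, was lowest in the same dam. The Col5a2 ratios were -1.48, -1.47, -1.5, -2.33 and -1.5 in controls, -1.47, -1.69, -1.42, -1.94 and -1.98 at the low dose, -1.74, -1.72, -1.63, -1.93 and -1.98 at the medium dose and -1.14, -1.29, -1.34, -1.98 and -1.41 at the high dose. Its high-dose difference was 0.22 ± 0.17 (adjusted p = 0.553), and 0.053 without control dam 15. Control dam 15 and high-dose dam 64, each the lowest of its group, share a slide, and within slides Col5a2 was higher in the high-dose dam on 5 of 5, by 0.083 to 0.35.

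The remaining fibrillar genes singled out by their p at the high dose were Col27a1, a cartilage-type fibrillar chain, and Col11a1, a minor chain that limits fibril width. Col27a1 was at 0.52, 0.55, 0.69, 0.60 and 0.56 in control dams, 0.59, 0.49, 0.83, 0.81 and 0.83 at the low, 0.53, 0.45, 0.74, 0.51 and 0.61 at the medium and 0.61, 0.35, -0.065, 0.57 and 0.36 at the high dose. High-dose dam 63 was lowest, and the difference of -0.21 ± 0.10 had an adjusted p of 0.3 (limma). The Col11a1 ratios were -1.4, -1.1, -1.53, -1.47 and -1.39 in controls, -1.34, -0.99, -1.36, -1.3 and -1.28 at the low dose, -1.33, -1.03, -1.44, -1.22 and -1.05 at the medium dose and -1.22, -1.06, -1.18, -1.33 and -1.19 at the high dose. For Col11a1 the lung signal exceeded background clearly in 1 of 5 control dams and 4 of 5 high-dose dams, so it passed the filter through the high dose alone. Its difference of 0.18 ± 0.092 had an adjusted p of 0.331. Col11a1 was higher on 5 of 5 slides, but the filter kept it for its high-dose signal, so that count is no support for a rise. The reference channel of its probe was itself higher at the high dose, by 0.24 (adjusted p = 0.00462, limma). Ratios of probes near background are compressed, so intervals are given for the 32 collagen genes above background on all arrays. Some of these are dim too, such as Col12a1 at a mean lung signal of 119 intensity units, so compression remains. At the brightest probe the 95% interval of the high-dose difference excluded a 1.5-fold change in either direction for 28 of the 32. The exceptions were Col17a1, Col13a1, Col5a3 and Col3a1, and the widest interval was that of Col3a1, from -0.27 to 0.92. These intervals hold for the brightest probes alone. Among the 28, Col4a3 and Col4a4 had other probes with larger differences, of -0.48 ± 0.14 and -0.35 ± 0.13, still inside the intervals. Another probe each of Col23a1 (-0.39), Col2a1 (0.26) and Col16a1 (0.21) lay outside the interval of its gene. Those intervals ran from -0.31 to 0.17, from -0.18 to 0.17 and from -0.20 to 0.11.

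**Figure D3:**
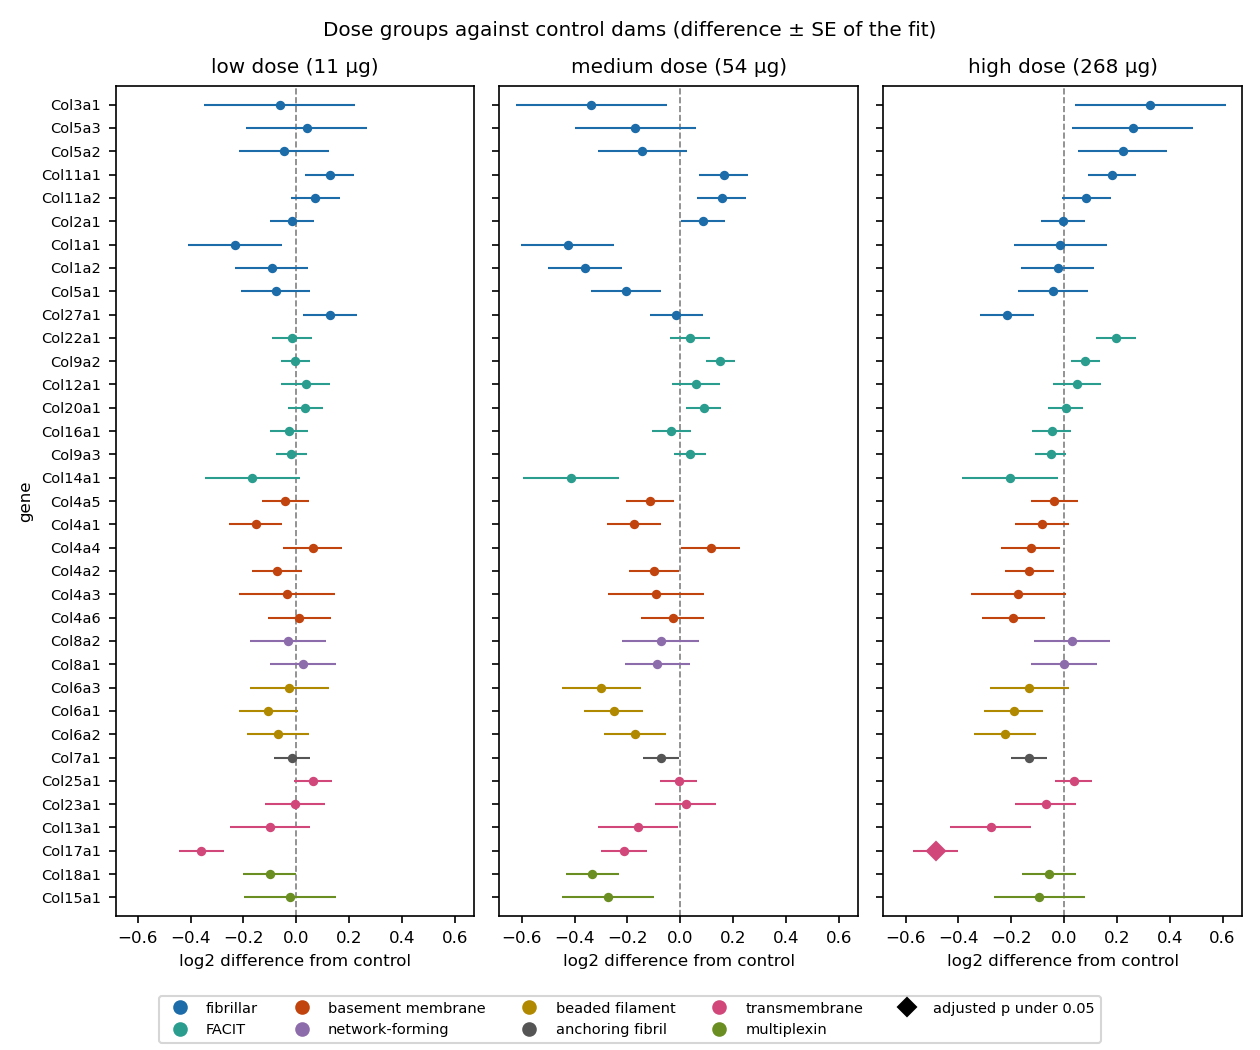
Log2 difference of each dose group from control (horizontal axes, point and SE of the fit, n = 5 per group) for the 35 collagen genes (vertical axis, coloured by class). The single diamond marks Col17a1 at the high dose, the 1 collagen gene whose brightest probe had an adjusted p under 0.05 in these 3 comparisons.

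The helix itself can be read in a few probes of fibrillar genes. Of the 78 collagen probes, 3 encode an unbroken Gly-X-Y run along their whole length, as does no other of the 41174 probes on the array. They are shown because they display the repeat that defines the family, with the glycine codons in capitals. They map to chr17:32131401-32131567 on the plus strand, chr2:27994034-27996457 on the plus strand and chr9:20655471-20656200 on the minus strand (mm7, per the array files), spans longer than the probes of 60 bases.
Col11a2: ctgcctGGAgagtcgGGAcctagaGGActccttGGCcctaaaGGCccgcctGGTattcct
Col5a1: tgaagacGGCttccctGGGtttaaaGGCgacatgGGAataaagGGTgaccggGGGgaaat
Col5a3: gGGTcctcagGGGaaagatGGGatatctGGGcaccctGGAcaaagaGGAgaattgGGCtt
The glycine codons number 6, 6 and 7. None of the 3 was the brightest probe of its gene, so none supplied the values above.

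At the brightest probe of each gene the basement membrane chains had small negative differences at the high dose, and none passed the test. All 6 type IV genes had a negative difference, from -0.19 for Col4a6 to -0.037 for Col4a5, with a median of -0.13 (0 called, 0 at an unadjusted p under 0.05, limma). At the medium dose 5 of 6 and at the low dose 4 of 6 were negative, again with 0 called. These comparisons share the same controls. Col4a1 and Col4a2 form the basement membrane found in most tissues. Col4a1 was at 1.55, 1.61, 1.88, 1.53 and 1.91 in control dams, 1.7, 1.28, 1.68, 1.52 and 1.52 at the low, 1.4, 1.36, 1.83, 1.65 and 1.36 at the medium and 1.67, 1.63, 1.69, 1.55 and 1.52 at the high dose. The Col4a2 ratios were 1.06, 1.12, 1.44, 1.07 and 1.27 in controls, 1.28, 0.88, 1.22, 1.1 and 1.12 at the low dose, 0.91, 1.02, 1.36, 1.22 and 0.95 at the medium dose and 1.11, 1.07, 1.18, 0.99 and 0.95 at the high dose. The groups overlapped for both genes, and the high-dose differences were -0.083 ± 0.10 and -0.13 ± 0.093.

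Col4a4 belongs with Col4a3 and Col4a5 to the network of alveolar and glomerular basement membranes, and Col4a6 pairs with Col4a5. Col4a4 was at 1.5, 1.45, 1.38, 1.25 and 1.23 in control dams, 1.64, 1.47, 1.54, 1.26 and 1.2 at the low, 1.41, 1.39, 1.61, 1.59 and 1.38 at the medium and 1.71, 1.04, 1.1, 1.26 and 1.06 at the high dose. High-dose dam 60 was the highest of all 20 dams, while the other 4 high-dose dams lay between 1.04 and 1.26. The Col4a6 ratios were 0.88, 0.88, 0.59, 0.63 and 0.72 in controls, 0.81, 1.0, 0.73, 0.59 and 0.61 at the low dose, 1.04, 0.67, 0.33, 0.80 and 0.70 at the medium dose and 0.71, 0.17, 0.59, 0.61 and 0.65 at the high dose. High-dose dam 62 stood apart at the low end. The high-dose differences were -0.13 ± 0.11 for Col4a4 (adjusted p = 0.621, limma) and -0.19 ± 0.12 for Col4a6 (adjusted p = 0.442). Dimmer probes of 2 chains gave larger differences. That of Col4a3 read 2.33, 2.32, 2.91, 2.79 and 2.59 in controls and 2.18, 2.08, 2.27, 2.26 and 1.75 at the high dose, without overlap. Its difference of -0.48 ± 0.14 (unadjusted p = 0.00239) did not pass over all probes (adjusted p = 0.0846, limma) but passed with slide as a fixed block (adjusted p = 0.0243), and with the scanner software's ratio it was 0.073. The brightest Col4a3 probe differed by -0.17 ± 0.18. The other Col4a4 probe, nearly as bright as the first (1952 against 2129 intensity units), differed by -0.35 ± 0.13 (adjusted p = 0.185).

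FACIT chains went in both directions. At the high dose 4 of the 7 measured genes had a positive and 3 a negative difference, the median was 0.0055, and 0 were called (1 at an unadjusted p under 0.05, limma). Col22a1 is a collagen of tissue junctions such as that of muscle and tendon. Col22a1 was at -0.89, -0.48, -0.73, -0.83 and -0.81 in control dams, -0.83, -0.69, -0.74, -0.80 and -0.77 at the low, -0.61, -0.80, -0.72, -0.81 and -0.63 at the medium and -0.64, -0.53, -0.31, -0.62 and -0.66 at the high dose. At this probe all high-dose dams except dam 63 lay within the control range, and the difference was 0.20 ± 0.076 (adjusted p = 0.196). A dimmer second probe, above background on 17 of 20 arrays, read -0.087, -0.22, -0.12, -0.28 and -0.15 in controls and 0.085, 0.19, 0.25, 0.069 and 0.098 at the high dose. There the groups did not overlap and the gene rose by 0.31 ± 0.075 (adjusted p = 0.0454 over all probes, limma). That call was lost in all 10 omissions of a control or high-dose dam (adjusted p 0.0513 to 0.12), with Cy5 alone (0.11, adjusted p = 0.993), with background-corrected scanner ratios (0.26, adjusted p = 0.222), with the software's ratio (0.59, adjusted p = 0.404) and with only control and high-dose arrays (adjusted p = 0.0605). With the mean of both probes the gene passed at 0.25 ± 0.062 (adjusted p = 0.0427, limma). Col9a2 encodes a chain of type IX collagen, known from cartilage, and Col14a1 a collagen that binds interstitial fibrils. The Col9a2 ratios were -0.20, -0.12, -0.16, -0.27 and -0.29 in controls, -0.27, -0.17, -0.069, -0.35 and -0.19 at the low dose, -0.017, -0.16, -0.032, -0.016 and -0.057 at the medium dose and -0.028, -0.13, -0.19, -0.19 and -0.088 at the high dose. Col14a1 was at 3.96, 4.1, 3.81, 3.31 and 3.81 in control dams, 3.89, 3.78, 3.16, 3.49 and 3.84 at the low, 3.71, 3.34, 3.14, 3.36 and 3.37 at the medium and 3.5, 3.04, 3.87, 3.46 and 4.09 at the high dose. Both genes overlapped between the control and high-dose dams, with differences of 0.081 ± 0.055 and -0.21 ± 0.18. The reference channel of Col14a1 was higher at the high dose by 0.29 (adjusted p = 0.0361, limma). Of 10 cartilage markers, Matn1, Matn3, Hapln1 and Cnmd did not pass the filter on lung signal. Among the 6 that did, 4 had a positive and 2 a negative difference at the high dose. Their median was 0.11 (0 called, 1 at an unadjusted p under 0.05, limma).

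At the brightest probe of each gene the smaller classes held no call apart from Col17a1. All 3 type VI genes, whose chains form beaded microfibrils, had negative differences at the high dose, with a median of -0.19 (0 called, 0 at an unadjusted p under 0.05, limma), and Col6a1 was lower on 5 of 5 slides. The Col6a2 ratios were -0.49, -0.33, -0.60, -0.98 and -0.51 in controls, -0.51, -0.58, -0.45, -0.95 and -0.77 at the low dose, -0.78, -0.72, -0.58, -0.74 and -0.94 at the medium dose and -0.69, -0.84, -0.57, -1.09 and -0.83 at the high dose. The difference for Col6a2 was -0.22 ± 0.12 (adjusted p = 0.351). Col7a1 encodes the anchoring fibrils below the basement membrane. Col7a1 was at -0.21, -0.058, 0.016, -0.0001 and -0.21 in control dams, -0.049, -0.19, -0.18, -0.10 and -0.026 at the low, -0.077, -0.34, -0.024, -0.060 and -0.34 at the medium and -0.14, -0.24, -0.26, -0.20 and -0.28 at the high dose. High-dose dams lay between -0.28 and -0.14 and overlapped with the 2 lowest controls, and the difference was -0.13 ± 0.069 (adjusted p = 0.343). Col8a2 encodes a network-forming chain and Col18a1 the source of endostatin. The Col8a2 ratios were 1.92, 1.68, 1.6, 1.62 and 1.63 in controls, 1.58, 2.02, 1.56, 1.49 and 1.65 at the low dose, 1.95, 1.8, 1.26, 1.81 and 1.25 at the medium dose and 1.7, 1.39, 2.01, 1.96 and 1.55 at the high dose. Col18a1 was at -0.80, -0.65, -0.79, -0.90 and -0.71 in control dams, -0.75, -1.01, -0.62, -1.06 and -0.92 at the low, -0.90, -1.08, -1.16, -1.08 and -1.3 at the medium and -0.88, -0.75, -0.54, -1.14 and -0.83 at the high dose. At the high dose their differences were 0.031 ± 0.14 and -0.058 ± 0.10, and the reference channel of Col8a2 was higher by 0.19 (adjusted p = 0.0338, limma). Of the other transmembrane genes, Col13a1 differed by -0.28 ± 0.15, Col23a1 by -0.069 ± 0.11 and Col25a1 by 0.036 ± 0.071, each at its brightest probe.

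The 3 probes of Col23a1, which encodes a transmembrane collagen, did not read alike. The second probe, with a mean lung signal of 1023 intensity units against 1329 for the first, read 1.96, 1.95, 2.07, 2.08 and 1.96 in controls and 1.62, 1.56, 1.79, 1.72 and 1.41 at the high dose. Its high-dose dams all lay below the controls, as did its medium-dose dams, which read 1.71, 1.52, 1.7, 1.89 and 1.73 (adjusted p = 0.155 for the medium dose, limma). At the high dose this probe fell by 0.39 ± 0.073 on the log2 scale (adjusted p = 0.0157 over all probes, limma). It was lower on 5 of 5 slides, which follows from the lack of overlap. The call was kept in all 10 omissions of a control or high-dose dam (highest adjusted p 0.0491) and with slide as a fixed block (0.0125). It was lost with background-corrected scanner ratios (-0.32, adjusted p = 0.466), the software's ratio (-0.28, adjusted p = 0.368), Cy5 alone (-0.25, adjusted p = 0.993) and only control and high-dose arrays in the fit (adjusted p = 0.0605). The third and dimmest probe differed by -0.19 ± 0.056 (adjusted p = 0.0955), and the first by -0.069 ± 0.11. Over the 62 collagen probes that passed the filter 3 were called at the high dose, where 1.33% of all 30143 probes were. An unadjusted p under 0.05 was found for 13 (17.3% of all probes), and 4 were without overlap (3.83%).

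**Figure D4:**
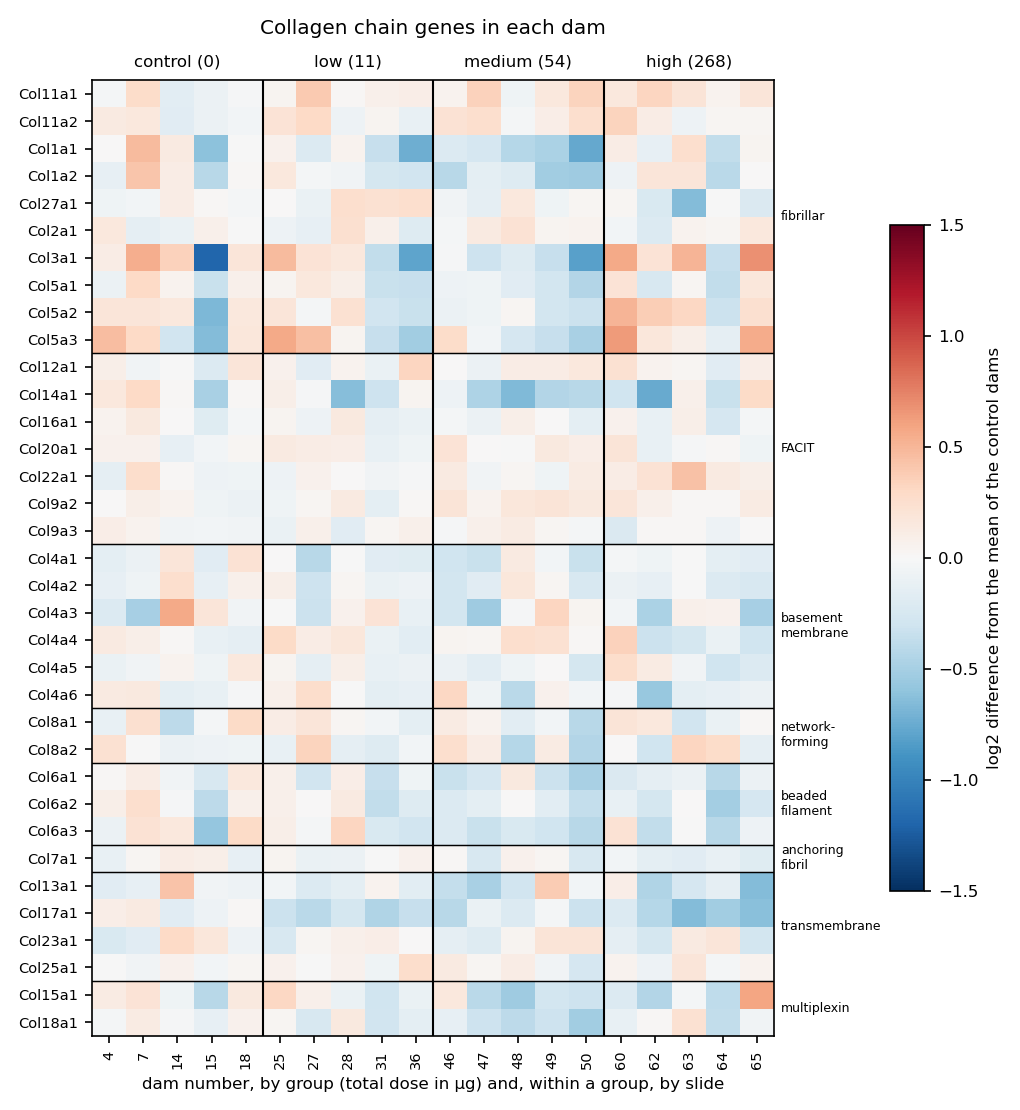
Log2 difference of each dam (columns, by group and total dose in µg) from the mean of the control dams for the 35 collagen genes (rows, by class), red above and blue below the control mean. The Col17a1 row is blue in all 5 low-dose and all 5 high-dose dams, and control dam 15 stands out in blue for Col3a1 and Col5a2.

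The medium dose gave more collagen genes at an unadjusted p under 0.05 than the high dose, and none of them passed the adjustment. There were 7 of 35 (Col1a1, Col1a2, Col6a1, Col9a2, Col14a1, Col17a1 and Col18a1), where 14% of all genes had such a p and 0.00502% were called. Differences were negative for 25 and positive for 10, with a median of -0.092 beside 0.007 for all genes. Col18a1 differed by -0.33 ± 0.10 (adjusted p = 0.198, limma), Col1a1 by -0.43 ± 0.18 (adjusted p = 0.303) and Col1a2 by -0.36 ± 0.14 (adjusted p = 0.274). On the 3 slides that held both groups the medium-dose dam was below its control on 3 of 3 for each of these genes. Those counts come from the same values as the p, so they are no separate support. The ranges overlapped between groups for Col1a1 and Col1a2. For Col18a1 the highest medium-dose dam, at -0.8989, was level with the lowest control, at -0.8991. Some markers of other cell types had negative differences beside these values. The 5 smooth muscle markers were all negative at the medium dose (median -0.47, 3 at an unadjusted p under 0.05, 0 called), with a mean per dam of 0.617 to 1.63 against 1.25 to 1.54 in controls. The 7 cardiac markers were all negative as well (median -0.99, 3 at an unadjusted p under 0.05, 0 called), and the fibroblast markers for 7 of 8 (median -0.10). Their part in the collagen values was not tested.

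At the low dose 1 collagen gene had an unadjusted p under 0.05, Col17a1 (limma), where 7.49% of all genes had one and 0.00502% were called. The median of the 35 differences was -0.026, with 10 positive and 25 negative, beside -0.0003 for all genes.

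Chains that share a molecule or fibril were compared across the 20 dams as deviations from their group means, over 7 pairs, with two-sided permutation tests of 100000 resamples adjusted over the pairs. Col4a1 and Col4a2 went together most closely, with Pearson's r of 0.95 (adjusted p = 3.5e-05, permutation) and Spearman's rho of 0.928 (adjusted p = 7e-05, permutation). Their RefSeq start sites lie 21 bases apart on opposite strands of chromosome 8 (GRCm38.p6). Those of Col4a5 and Col4a6, which were not compared across dams, lie 1343 bases apart on opposite strands of chromosome X. No distance was available for Col4a3 and Col4a4, since Col4a3 had no window. Whether the distance bears on the correlation was not tested. Col1a1 and Col3a1 had r = 0.931 and rho = 0.853 (adjusted p = 3.5e-05 and 7e-05, permutation), and Col1a1 and Col1a2 r = 0.812 and rho = 0.78 (adjusted p = 5.6e-05 and 0.000233, permutation). The raw p of 1e-05 behind the smallest adjusted values is the smallest these resamples can give. Without the 2 dams farthest from the median of the first gene, r was 0.922, 0.874 and 0.753 for these 3 pairs, and with slide means removed too it was 0.931, 0.895 and 0.701.

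Col6a1 with Col6a2 gave r = 0.762 and rho = 0.756 (adjusted p = 5.6e-05 and 0.00042, permutation). It was 0.744 without the farthest 2 dams and 0.649 with slide means removed. Col5a1 with Col5a2 gave r = 0.775 and rho = 0.65 (adjusted p = 5.6e-05 and 0.00377, permutation). That relation was 0.668 without the farthest 2 dams and did not pass once slide means were removed (r = 0.43, adjusted p = 0.0826, permutation). Col4a3 with Col4a4, which share one network, had r = 0.16 and rho = 0.093 at their brightest probes (adjusted p = 0.503 and 0.697, permutation). In the background-corrected scanner ratios r was 0.438. The brightest Col4a4 probe averaged 1.36 in controls and the other, nearly as bright, 4.36. Other probes of this pair were not tested, so the low r holds for the brightest probes alone. Col8a1 with Col8a2 had r = 0.165 and rho = 0.197 (adjusted p = 0.503 and 0.47, permutation). Without the farthest 2 dams r was 0.252 and -0.057. The pair Col9a1 and Col9a2 was not tested because Col9a1 was not above background. The median r over all 595 pairs of the 35 genes, partner pairs included, was 0.169. That pool mixes bright probes with probes near background, so it is no matched baseline for the partner pairs. What the dams share by array, slide and tissue sample was not separated from the pairing of chains. A slide held too few arrays for a correlation within it.

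**Figure D5:**
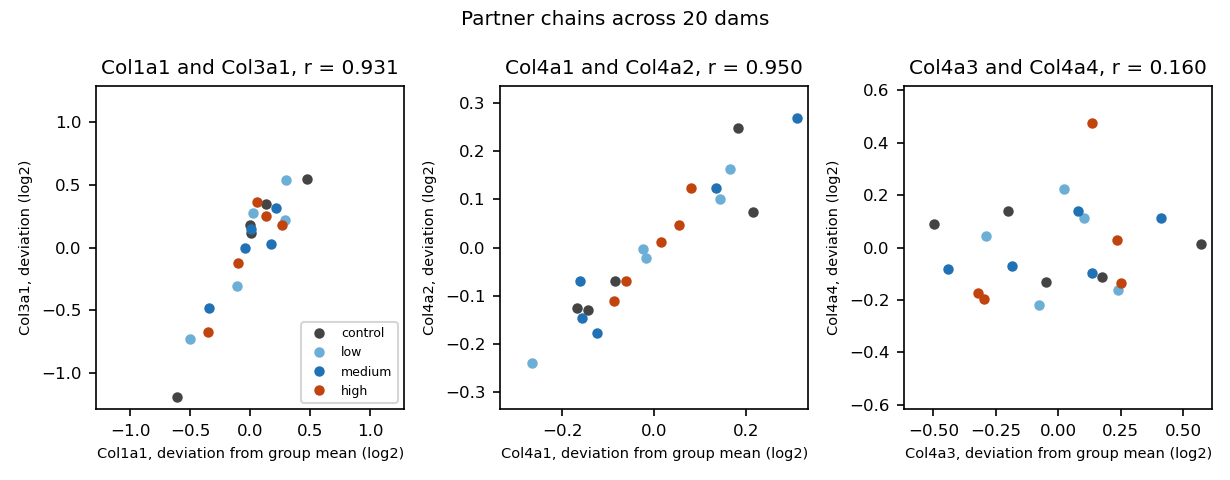
Deviation from the group mean (log2 ratio, both axes on the same scale) of 3 pairs of chains across 20 dams, coloured by dose group. Each gene is shown at its brightest probe. Points of the first 2 pairs lie along a line (r = 0.931 and 0.95), and those of Col4a3 and Col4a4 are scattered (r = 0.16, and 0.438 in background-corrected ratios, which are not plotted).

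The upstream windows of Col1a2 and Col3a1 are shown as examples of chains whose ratios moved with that of Col1a1 across dams. They are chr6:4505368-4505617 and chr1:45311288-45311537, both on the plus strand of GRCm38.p6, with the same motifs in capitals (GGGCGG is CCGCCC on the other strand).
Col1a2: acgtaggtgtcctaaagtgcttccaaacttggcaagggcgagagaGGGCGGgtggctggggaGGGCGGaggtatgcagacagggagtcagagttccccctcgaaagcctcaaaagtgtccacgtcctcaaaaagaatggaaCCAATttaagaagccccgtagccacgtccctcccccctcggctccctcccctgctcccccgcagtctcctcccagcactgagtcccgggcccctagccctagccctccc
Col3a1: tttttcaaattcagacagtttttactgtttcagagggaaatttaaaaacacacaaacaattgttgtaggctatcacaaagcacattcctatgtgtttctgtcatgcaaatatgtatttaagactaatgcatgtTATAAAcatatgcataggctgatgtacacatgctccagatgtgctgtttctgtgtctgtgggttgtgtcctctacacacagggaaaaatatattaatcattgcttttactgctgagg
The Col1a2 window has 62% G and C and holds CCGCCC 2 times and CCAAT 1 time. The Col3a1 window has 35.2% G and C and holds TATAAA 1 time and neither other motif.

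Genes that make, bind or sense collagen held 2 calls at the high dose, where 1.02% of all genes were called. In the list of collagen synthesis and processing (24 of 26 measured) 1 gene fell and 0 rose. It was Colgalt2, which adds galactose to hydroxylysine in collagen chains, from 3.17 ± 0.15 (SD, n = 5) in controls to 2.58 ± 0.18, a difference of -0.58 ± 0.095 (SE, adjusted p = 0.00492, limma). P3h3 at -0.23 (adjusted p = 0.127) and Pcolce, which speeds the removal of the procollagen tail, at -0.20 (adjusted p = 0.285) came next. Among collagen-binding proteoglycans (8 of 9 measured) 1 fell and 0 rose, Ogn, from 1.85 ± 0.18 to 1.40 ± 0.12 (adjusted p = 0.0489, limma). Bgn at -0.34 (adjusted p = 0.281) and Aspn at -0.24 (adjusted p = 0.472) did not pass. The calls of Colgalt2 and Ogn were not examined under other settings or single omissions. Over all genes the number called at the high dose ranged from 10 to 682 over the other settings.

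The lists of crosslinking enzymes, receptors, basement membrane partners and fibrosis genes held 0 calls at the high dose, and 16.5% of all genes had an unadjusted p under 0.05. Of 5 crosslinking enzymes 2 had an unadjusted p under 0.05, Lox at 0.40 (adjusted p = 0.12, limma) and Loxl4 at 0.18 (adjusted p = 0.15), and Loxl1 was at -0.11. Of 10 collagen receptors 1 had one, Gp6 of platelets at -0.43 (adjusted p = 0.0806), followed by the integrin chains Itga1 at -0.19 and Itga11 at -0.21. Of 14 basement membrane partners 3 had one, the laminin chains Lama4 at -0.32 (adjusted p = 0.109), Lama2 at -0.23 (adjusted p = 0.114) and Lamb2 at -0.18 (adjusted p = 0.188). Of 15 fibrosis signals and matrix genes 3 had one. These were Spp1, the matrix protein osteopontin, at 1.07 ± 0.30 (adjusted p = 0.0851), Timp1, an inhibitor of matrix-degrading enzymes, at 0.67 ± 0.20 (adjusted p = 0.112), and the growth factor Pdgfb at -0.23 (adjusted p = 0.208). Among fibroblast markers 6 of 8 were negative at the high dose (median -0.14, 0 called, 1 at an unadjusted p under 0.05, limma), with a mean per dam of 1.02 to 1.33 against 1.13 to 1.45 in controls. Some lists share genes. Dcn and Lum are both fibroblast markers and collagen-binding proteoglycans, and Acta2 is both a smooth muscle marker and a fibrosis gene. The part of the fibroblast markers in the values of these lists was not tested.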

How the data were processed

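Lung RNA of 20 dams, 5 per group and each dam a separate replicate per the labels, was hybridised to Agilent mouse arrays. Per the file headers, signals came from Feature Extraction, version 9.5.1.1 with build mm7 for 18 arrays, and version 10.1.1.1 with build mm8 for the 2 medium-dose arrays of slide 6. The authors deposited spot tables with Cy5 and Cy3 intensity in scanner units, flags of signal above background, the software's log10 ratio, and a table of log2 ratios of lung over reference with column medians of -0.050 to -0.032. That table follows the ratio of signals without background subtraction (r = 0.962 to 0.993 per array), so ratios of dim probes are compressed; its scaling method: not given in the sources used here. It was analysed as deposited. Spots of a probe were averaged, and the brightest probe stood for a gene. One model over all 20 arrays was fitted with limma 3.58.1 (lmFit, eBayes; R 4.3.3), and genes were called at a Benjamini-Hochberg adjusted p under 0.05 over 19908 genes. The trend used steps 0 to 3. Steps were tested on simulated data. Symbols came from the RefSeq gene table of GRCm38.p6 and the array files. The members, classes, lists and the rule for named genes (smallest p at the high dose per class, plus the type I, type III and common type IV chains) were chosen with earlier results of these data known. The number of arrays limits the precision.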

Additional observations from a re-analysis of the deposited data

Results flagged for a closer look

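Groups of 5 dams of each named collagen gene were screened for a dam whose gap to the nearest of the others exceeded 0.71 of the group's range. Of 72 groups 5 were flagged, and chance flags about 1 in 20. Control dam 15 was low for Col3a1 at -1.786, with the nearest control at -0.483, and for Col5a2 at -2.33, with the nearest at -1.5. High-dose dam 62 was low for Col4a6 at 0.168, with the nearest at 0.593. Low-dose dam 27 was high for Col11a1 at -0.987, with the nearest at -1.279. Control dam 4 was high for Col8a2 at 1.92, with the nearest at 1.682. Their causes were not tested.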

How the results depend on the processing

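Col17a1 kept a negative high-dose difference under all 15 other settings run and in all 20 omissions of a single dam (-0.556 to -0.445, highest adjusted p 0.0305). Its call was lost with scanner signals corrected by normexp and loess (-0.405), the software's ratio (-0.336), Cy5 alone (-0.46), only the arrays compared (-0.486) and the dimmer probe (-0.101). Collagen genes called at the high dose numbered 1, and 0 with normexp and loess, 0 with the software's ratio, 0 with Cy5 alone, 0 with only the arrays compared, 2 without the filter (with Col9a1, above background on no array) and 2 with the mean of a gene's probes (with Col22a1). For the trend the count of 1 became 0 with normexp and loess, 0 with the software's ratio, 0 with Cy5 alone, 0 after median centring, 0 after scaling, 0 with probes above background on all arrays, 2 without the filter, 2 with the mean of probes (Col22a1 and Col24a1, not Col17a1) and 2 with the filter set before the choice of probe (with Col24a1), and 0 to 1 over single omissions. The Col24a1 calls for the trend rest on its dimmer probe, near background. At the low and medium dose the count of collagen genes called was 0 in every setting and omission run (limma).

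Over all genes the high-dose count of 204 became 14 with normexp and loess, 10 with the software's ratio, 27 with Cy5 alone, 21 with only the arrays compared, 359 without the filter, 130 with probes above background everywhere, 334 with the mean of probes, 616 with slide as a fixed and 682 as a random block, and 412 with scan date as a block, and 78 to 242 over omissions. The trend count of 272 became 0, 1 and 3 with normexp, the software's ratio and Cy5 alone, 167 after scaling, 460 without the filter, 156 with probes above background everywhere, 676, 747 and 513 with the slide and scan date blocks, and 91 to 331 over omissions. At the medium dose 1 gene was called, 0 with each of normexp, software and Cy5 values, 3 without the filter, 2 with slide as a fixed block, and 1 to 9 over omissions. At the low dose it was 1, and 0 with normexp, 0 with the software's ratio and 0 with Cy5 alone.

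The sign of uncalled high-dose differences turned for Col1a1 (0.0264 with normexp, 0.0369 with the software's ratio, 0.0419 with the mean of probes, and -0.167 to 0.105 over omissions), Col1a2 (0.0207, 0.0723 and 0.0439 likewise, and -0.13 to 0.0806), Col14a1 (0.0483 with the software's ratio, 0.0554 with Cy5 alone), Col27a1 (0.0689 with Cy5 alone), Col9a2 (-0.0575 with the software's ratio), Col18a1 (-0.13 to 0.0214 over omissions) and Col8a2 (-0.0403 to 0.115). Col22a1 passed with the mean of its probes (0.254). The correlation of Col5a1 and Col5a2 was 0.43 with slide means removed, and that of Col8a1 and Col8a2 was -0.017 then and -0.057 without the farthest 2 arrays. The dimmer Col4a3 probe turned to 0.0734 with the software's ratio. The correlation of Col4a3 and Col4a4 was 0.438 with normexp. The filter set before the choice of probe and the settings for other probes were chosen after seeing the data. The causes were not tested. Dam numbers were not shared between groups, so dams were matched by slide alone. Ratios of dim probes are compressed, since background was not subtracted, which limits the changes they can show.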

Other observations

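The arrays of slide 4 (control dam 15, low-dose dam 31 and high-dose dam 64) were each the lowest of their group for 4 of 35 collagen genes (Col6a1, Col6a2, Col16a1 and Col18a1), a pattern singled out after the values were seen. On that slide 3.02% of all genes had this order, and 0 of 35 collagen genes had it on slides 1, 2, 3 or 5. The slides held 1 dam of each of these groups, so slide and dam cannot be told apart here.

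Of 21 collagen genes with more than 1 probe above the filter, 14 had high-dose differences of one sign over their probes and 7 did not (Col1a1, Col1a2, Col2a1, Col5a1, Col8a1, Col11a2 and Col16a1). For Col1a1 the probes ranged from -0.015 to 0.15 and for Col2a1 from -0.0034 to 0.26. All 3 probes of Col27a1 were lower, from -0.21 to -0.12, as were both of Col4a3, from -0.48 to -0.17, and both of Col4a4, from -0.35 to -0.13.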
